A study of Mus musculus with 8 samples.

Results

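The 35 genes described here are those of fibroblasts and of the non-collagen matrix that fibroblasts lay down: surface receptors, small proteoglycans, elastic fibre proteins, crosslinking enzymes, adhesive and matricellular glycoproteins, and matrix proteases with their inhibitors. They were taken by gene name, with collagens left out, and all 35 were found among the 54532 genes of the count table. RNA had been sequenced from 8 untreated mice of mixed C57BL/6 X CD1 stock, and the tissue was stomach corpus, where the glands make acid and pepsinogen. The 4 mutants were Six2-Cre+/- PKAcaR fl/wt and the 4 controls were Six2-Cre+/- PKAcaR wt/wt, so every animal carried the Cre transgene. PKAcaR is known from the literature as a floxed allele of Prkaca, which encodes a catalytic subunit of the cyclic AMP-dependent kinase PKA, and after Cre recombination its enzyme no longer needs cyclic AMP. The Cre is driven by the promoter of Six2, a transcription factor gene of kidney progenitors and stomach mesenchyme, and which corpus cells had recombined is not given in the labels, nor are age and sex. The comparison of mutant with control corpus asks which of the genes differ with the active kinase.

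Fibroblasts of the stomach wall lie beneath and between the glands and secrete the interstitial matrix. Platelet-derived growth factor (PDGF) signals through 2 receptors, PDGFRA, known as the receptor of gut fibroblasts and of the subepithelial cells that signal to the epithelium, and PDGFRB, which is strong in pericytes. Small leucine-rich proteoglycans coat collagen fibrils and set their spacing, fibrillin microfibrils carry elastin, and lysyl oxidases crosslink collagen and elastin outside the cell. Fibronectin, tenascin C, periostin, SPARC and the thrombospondins are made in quantity during wound repair and fibrosis. Several of these genes are also active in other cells, such as CD34 and SPARC in endothelium and vimentin in most mesenchymal and immune cells.

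Libraries held 18184281 to 23814720 counted reads in mutants and 18942308 to 22814152 in controls. Unless FPKM is named, values are CPM, reads scaled to a common library size with TMM factors, which align the bulk of genes between libraries. Prkaca was at 37.9 ± 1.87 CPM in mutants and 80.2 ± 4.05 CPM in controls (SD, n = 4 each). Mutant 2 stood apart from the other libraries: its log2 CPM correlated across genes at 0.83 to 0.87 with the other mutants, against 0.97 to 0.98 among those 3. The corpus markers Atp4a and Pgc, the proton pump and pepsinogen C genes, were at 4.42 and 819 CPM in mutant 2, 444 to 1446 and 11304 to 37110 CPM in the other mutants, and 9783 to 13086 and 258005 to 455036 CPM in controls. Pgc alone took 0.107% to 4.60% of reads in mutants and 20.7% to 31.2% in controls. Plain column totals as library sizes moved the genome-wide median upward by 0.70 on the log2 scale. Results below are relative to the bulk of genes. In bulk RNA, fewer cells of a type and less RNA per cell cannot be told apart.

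All 35 genes passed the filter on low counts. In 4 mutants against 4 controls 7 were higher, 1 was lower and 27 were not called (quasi-likelihood test of edgeR, adjusted p under 0.05 after Benjamini and Hochberg). Over all 15862 genes tested, 20.2% were called, 9.39% higher and 10.8% lower, while among the 35 genes 20% were higher and 2.86% lower. The higher genes were Pdgfra, Fbln5, Lox, Postn, Thbs1, Fmod and Adamts4, and the lower gene was Ogn. The median log2 fold change of the 35 was 1.72, where that of all genes was 0.07. All 4 mutants lay above all 4 controls in 13 of the genes and below them in 2, or 37.1% and 5.71%, against 14.2% and 16.1% of all genes tested (30.3% in either direction). Mutant 2 was the highest of the 8 libraries in 33 of the 35, and the median SE was 0.81 with it and 0.24 without it.

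Without mutant 2 the picture split. Of the 35 genes 12 were higher, 5 were lower and 18 were not called, against 33.5% called, 15.2% higher and 18.3% lower, of 16124 genes tested. All 3 remaining mutants lay above all controls in 13 and below them in 5, or 37.1% and 14.3%, against 19.8% and 21.7% of all genes (41.5% in either direction). The shares among the 35 were 34.3% higher and 14.3% lower, and their median log2 fold change was 0.34, where that of all genes was 0.02. The 8 genes called with all libraries were called again in the same direction. Joining the higher genes were Loxl2, Fn1, Sparc, Bgn and Vcan, and joining Ogn among the lower were Dpt, Fbln1, Cd34 and Thbs2. With column totals as library sizes, 25 genes were higher and none lower with all libraries (59.5% and 4.55% of all genes, 64.1% together), and 24 were higher and 1, Dpt, lower without mutant 2 (64.2% and 7.02% of all genes, 71.2% together). Controls also weighed on the calls with all libraries: without control 1, 2, 3 or 4, 1, 1, 2 and 3 genes were higher and 0, 1, 0 and 1 lower, while the calls over all genes were 1717, 1941, 1723 and 2200, against 3208 with all libraries. Adamts4 was the gene called whichever single library was left out.

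**Figure D1:**
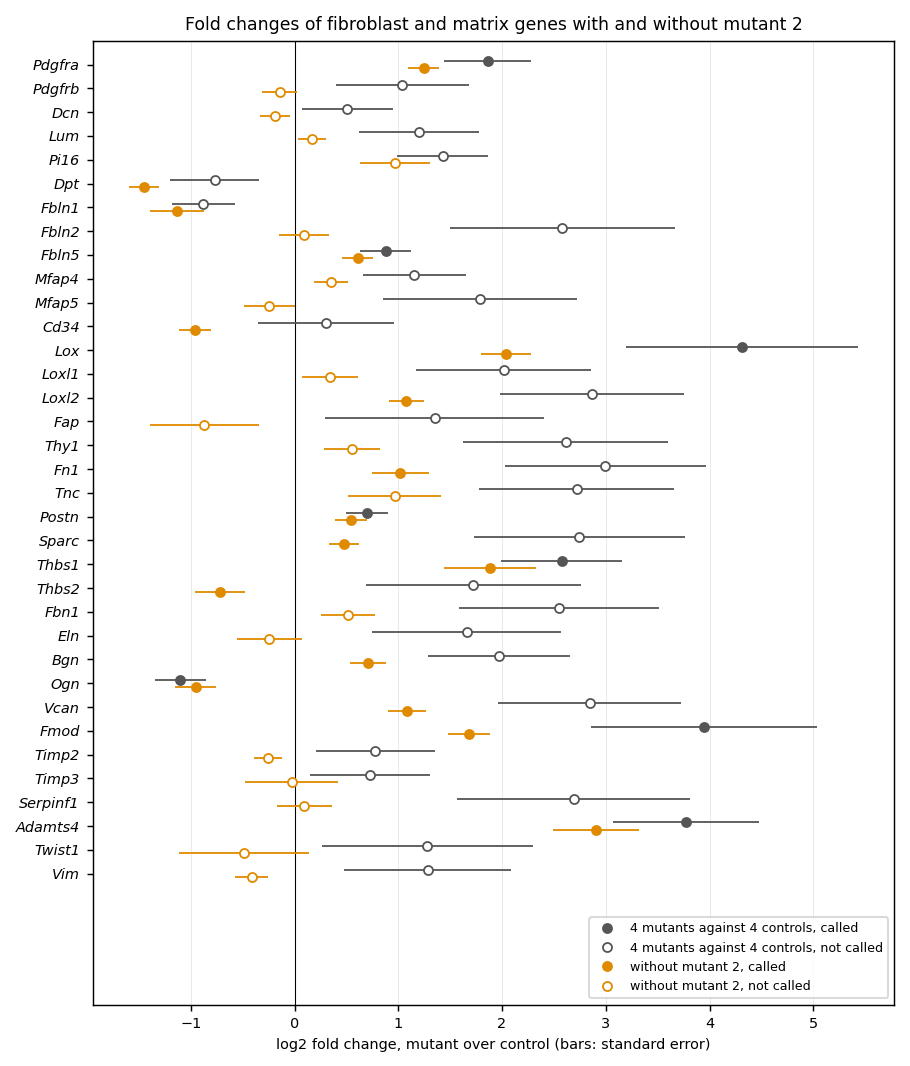
Log2 fold change of each of the 35 genes, mutant over control, with its standard error, for all 8 libraries (grey, upper) and without mutant 2 (orange, lower). Filled points passed an adjusted p of 0.05. With all libraries most estimates lie to the right of 0 with wide bars. Without mutant 2 the bars narrow, and 12 genes were called higher, 5 lower and 18 not called.

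**Figure D2:**
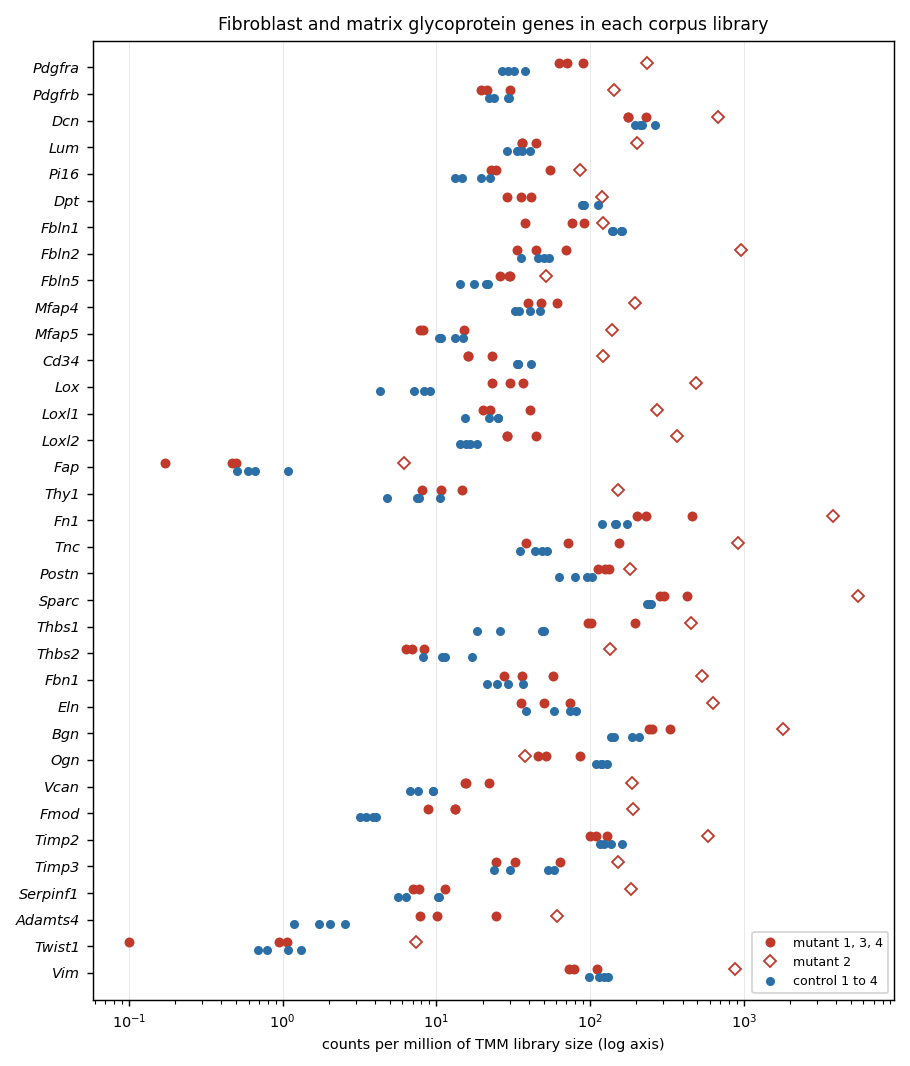
CPM on TMM library sizes (log axis) of the 35 genes in each library, mutants 1, 3 and 4 as filled red points, mutant 2 as an open diamond and the 4 controls in blue. The diamond is the rightmost point of its gene in 33 of 35 genes, the exceptions being Fbln1 and Ogn.

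Promoter sequence is shown for the genes called with and without mutant 2 that have an entry (Pdgfra, Fbln5, Ogn, Postn and Fmod), because PKA is known to act on transcription through CREB, which binds the cyclic AMP response element. RefSeq tables (GRCm38.p6) held a start for 21 of the 35 genes, and the 250 bases upstream of it were searched on both strands for the full element TGACGTCA, its core TGACG, the AP-1 letters TGANTCA and the TATA box letters TATAAA. The core lay in 3 of the 21 windows, those of Pdgfra, Fbln5 and Twist1, and in 17.9% of 27025 promoters of the same length. The full element and the AP-1 letters were in none of the 21 windows, and in 1.62% and 6.87% of all promoters. TATAAA lay in 5 of the 21 and in 13.0% of all, and Ogn held it on both strands in overlapping copies. The upstream windows of Pdgfra (chr5:75152001-75152250, plus strand), Fbln5 (chr12:101819120-101819369, minus strand, the first of 2 listed starts), Ogn (chr13:49607765-49608014, plus strand), Postn (chr3:54359017-54359266, plus strand, the first of 2 listed starts) and Fmod (chr1:134037004-134037253, plus strand) follow, 5′ to 3′, with core and TATA letters in capitals.
Pdgfra: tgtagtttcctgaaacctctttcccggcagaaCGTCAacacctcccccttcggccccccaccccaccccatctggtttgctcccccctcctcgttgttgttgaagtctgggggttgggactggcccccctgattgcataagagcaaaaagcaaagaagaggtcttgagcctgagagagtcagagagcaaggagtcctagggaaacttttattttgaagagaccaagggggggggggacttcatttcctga
Fbln5: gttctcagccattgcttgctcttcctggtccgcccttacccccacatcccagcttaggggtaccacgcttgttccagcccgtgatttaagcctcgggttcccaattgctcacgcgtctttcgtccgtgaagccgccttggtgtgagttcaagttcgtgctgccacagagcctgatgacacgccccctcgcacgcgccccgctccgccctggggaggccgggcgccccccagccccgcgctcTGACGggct
Ogn: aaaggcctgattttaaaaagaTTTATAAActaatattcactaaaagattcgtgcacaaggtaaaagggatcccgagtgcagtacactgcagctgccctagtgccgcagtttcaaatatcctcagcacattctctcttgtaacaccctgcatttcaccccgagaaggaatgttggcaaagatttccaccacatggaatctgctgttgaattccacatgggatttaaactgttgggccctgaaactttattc
Postn: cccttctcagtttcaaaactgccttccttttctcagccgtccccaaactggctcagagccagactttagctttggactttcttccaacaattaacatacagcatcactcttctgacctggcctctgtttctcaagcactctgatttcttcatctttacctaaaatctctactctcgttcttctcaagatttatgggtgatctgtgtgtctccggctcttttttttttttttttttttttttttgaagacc
Fmod: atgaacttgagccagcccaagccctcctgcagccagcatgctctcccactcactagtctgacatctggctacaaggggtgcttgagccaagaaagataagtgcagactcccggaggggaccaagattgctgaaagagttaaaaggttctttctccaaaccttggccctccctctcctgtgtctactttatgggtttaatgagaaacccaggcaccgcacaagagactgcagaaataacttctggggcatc
The core begins 218 bases upstream of the start in Pdgfra and 9 bases upstream in Fbln5. The windows of Postn and Fmod, which also rose, hold none of the letters searched, and Twist1, which holds the core, was not called. The Postn window ends at 54359266, well upstream of the counted gene's start at 54361109. Sequence next to that start was therefore not searched. These are matches of letters in the windows searched.

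Among the receptors and surface proteins of fibroblasts, Pdgfra rose and Cd34 was lower without mutant 2. Pdgfra, the PDGF receptor alpha gene (chromosome 5, 75152292 to 75198215 in GRCm38), had 70.5, 234, 63.04 and 90.6 CPM in mutants 1 to 4, against 26.9, 29.4, 31.98 and 37.9 CPM in controls 1 to 4. Every mutant lay above every control (log2 fold change 1.86, SE 0.42, adjusted p = 0.0189), and without mutant 2 the difference was smaller and better resolved (log2 fold change 1.24, SE 0.15, adjusted p = 0.000134). It lost its call without control 1, 2 or 3 (adjusted p of at most 0.0651). Pdgfrb, the beta receptor gene, had 19.6, 144, 21.2 and 30.2 CPM in mutants 1 to 4, against 22.2, 23.6, 29.7 and 29.1 CPM in controls 1 to 4, so mutant 2 lay far above and the other 3 mutants overlapped the controls. It was not called with mutant 2 (log2 fold change 1.04, SE 0.64, adjusted p = 0.275) or without it (log2 fold change -0.14, SE 0.17, adjusted p = 0.553). Cd34, a sialomucin of fibroblast progenitors and endothelium, had 16.1, 121, 16.1 and 22.97 CPM in mutants 1 to 4, against 33.7, 33.9, 41.04 and 34.2 CPM in controls 1 to 4. The 3 mutants other than mutant 2 lay below every control and mutant 2 lay above all. Its log2 fold change was 0.30 (SE 0.65, adjusted p = 0.768) with mutant 2 and -0.96 (SE 0.15, adjusted p = 0.000723) without it.

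Pi16, a protease-inhibitor family gene that marks adventitial fibroblasts, had 24.6, 85.6, 22.7 and 54.6 CPM in mutants 1 to 4, against 19.5, 13.3, 22.2 and 14.7 CPM in controls 1 to 4. Every mutant lay above every control, mutant 3 by little, and the gene missed the threshold with mutant 2 (log2 fold change 1.43, SE 0.44, adjusted p = 0.05199) and without it (log2 fold change 0.96, SE 0.34, adjusted p = 0.0617). Thy1, a surface glycoprotein of many fibroblasts, was at 153 CPM in mutant 2, 8.06 to 14.7 CPM in the other 3 mutants and 4.74 to 10.5 CPM in controls, with overlapping groups, and was not called (log2 fold change 2.61, SE 0.99, and 0.55, SE 0.27, without mutant 2). Fap, a protease of activated fibroblasts, was scarce, at 6.13 CPM in mutant 2, 0.172 to 0.501 CPM in the other 3 mutants and 0.502 to 1.09 CPM in controls, or 150 reads in mutant 2 and at most 17 in any other library. Its 3 other mutants lay below every control without passing the test (log2 fold change -0.87, SE 0.52, adjusted p = 0.223).

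The proteoglycans were unequal. Fmod, fibromodulin, a collagen-binding leucine-rich proteoglycan (chromosome 1, 134037254 to 134048277), had 13.2, 191, 8.88 and 13.3 CPM in mutants 1 to 4, against 4.08, 3.49, 3.19 and 3.89 CPM in controls 1 to 4. Every mutant was above every control, with (log2 fold change 3.95, SE 1.09, adjusted p = 0.0377) and without mutant 2 (log2 fold change 1.68, SE 0.20, adjusted p = 0.000138). Ogn, osteoglycin, a related proteoglycan (chromosome 13, 49608046 to 49624501), had 86.6, 37.8, 51.5 and 45.9 CPM in mutants 1 to 4, against 119, 109, 129 and 117 CPM in controls 1 to 4. It was the gene in which mutant 2 was the lowest library, and every mutant lay below every control with (log2 fold change -1.099, SE 0.24, adjusted p = 0.0174) and without mutant 2 (log2 fold change -0.95, SE 0.20, adjusted p = 0.00482). Ogn kept its negative sign but not its call with column totals (log2 fold change -0.40, adjusted p = 0.153). It missed the threshold when control 1, control 3 or mutant 4 was removed, with 0.0534 as the highest adjusted p. Fmod lost its call without any 1 control (adjusted p of at most 0.103).

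Bgn, biglycan, had 241, 1814, 255 and 332 CPM in mutants 1 to 4, against 143, 137, 208 and 187 CPM in controls 1 to 4, with every mutant above every control. It was not called with mutant 2 (log2 fold change 1.97, SE 0.69, adjusted p = 0.0763) and was higher without it (log2 fold change 0.71, SE 0.17, adjusted p = 0.00876). Vcan, versican, the large hyaluronan-binding proteoglycan, had 15.4, 187, 15.7 and 21.98 CPM in mutants 1 to 4, against 7.598, 6.79, 9.51 and 9.45 CPM in controls 1 to 4. All mutants again lay above all controls, and Vcan was higher without mutant 2 (log2 fold change 1.08, SE 0.18, adjusted p = 0.00114) but not with it (log2 fold change 2.85, SE 0.88, adjusted p = 0.0542). Dcn, decorin, and Lum, lumican, a pair of abundant fibril-coating proteoglycans, were not called. Dcn was at 679.7 CPM in mutant 2, 177 to 231 CPM in the other 3 mutants and 197 to 264 CPM in controls, with a log2 fold change of -0.19 (SE 0.14, adjusted p = 0.344) without mutant 2. Lum was at 202 CPM in mutant 2, 36.1 to 44.6 CPM in the other 3 mutants and 28.99 to 40.7 CPM in controls, with a log2 fold change of 0.17 (SE 0.14, adjusted p = 0.381) without it.

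Of the elastic fibre and microfibril genes, Fbln5 rose, while Fbln1 and Dpt were lower once mutant 2 was left out. Fbln5, fibulin 5, which helps elastin assemble on microfibrils (chromosome 12, 101746565 to 101819055), had 30.3, 52.01, 25.8 and 29.7 CPM in mutants 1 to 4, against 21.2, 14.4, 21.8 and 17.6 CPM in controls 1 to 4. Every mutant was above every control with (log2 fold change 0.88, SE 0.24, adjusted p = 0.0385) and without mutant 2 (log2 fold change 0.61, SE 0.15, adjusted p = 0.00945), though leaving out mutant 1, mutant 4 or any 1 control took the call away (adjusted p of at most 0.103). Fbln1, fibulin 1, of fibronectin- and elastin-rich matrix, had 38.01, 121, 91.6 and 76.02 CPM in mutants 1 to 4, against 161, 139.9, 159 and 141 CPM in controls 1 to 4. All mutants were below all controls, and the gene was lower without mutant 2 (log2 fold change -1.13, SE 0.26, adjusted p = 0.0105) but missed the threshold with it (log2 fold change -0.88, SE 0.30, adjusted p = 0.0734). Dpt, dermatopontin, a decorin-binding matrix protein widely used as a fibroblast marker, had 28.7, 119.7, 35.5 and 41.1 CPM in mutants 1 to 4, against 113, 91.2, 90.6 and 88.5 CPM in controls 1 to 4. Mutants 1, 3 and 4 held less than any control, and mutant 2 held more than any control (log2 fold change -0.77, SE 0.43, adjusted p = 0.234 with it, and log2 fold change -1.45, SE 0.14, adjusted p = 4.47e-05 without it).

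Fbln2, fibulin 2, had 33.7, 962, 44.8 and 69.7 CPM in mutants 1 to 4, against 49.9, 35.6, 54.4 and 45.6 CPM in controls 1 to 4. Apart from the very high mutant 2 the groups overlapped (log2 fold change 0.09, SE 0.24, adjusted p = 0.803 without it). Eln, elastin, was at 636 CPM in mutant 2, 35.7 to 73.6 CPM in the other 3 mutants and 38.4 to 81.2 CPM in controls, and Fbn1, fibrillin 1, the main microfibril protein, at 535 CPM in mutant 2, 27.7 to 57.04 CPM in the other 3 mutants and 21.4 to 36.8 CPM in controls. Neither was called with mutant 2 (adjusted p = 0.224 for Eln and 0.0959 for Fbn1), nor without it (log2 fold changes -0.24, SE 0.31, and 0.52, SE 0.26). The microfibril-associated genes Mfap4 and Mfap5 were not called either. Mfap4 was at 196 CPM in mutant 2, 39.5 to 60.8 CPM in the other 3 mutants and 32.4 to 46.9 CPM in controls, and Mfap5 at 139 CPM in mutant 2, 7.78 to 15.2 CPM in the other 3 mutants and 10.4 to 14.9 CPM in controls. Mfap4 overlaps the antisense gene Mapk7, which held at most 693 reads in a library, and the strand setting of the counting is not given, so its reads may be shared.

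All 3 lysyl oxidases were highest in mutant 2, and they differed among the remaining libraries. Lox, the founding lysyl oxidase (chromosome 18, 52516069 to 52529867), had 22.9, 486, 36.4 and 29.998 CPM in mutants 1 to 4, against 4.33, 9.16, 8.298 and 7.18 CPM in controls 1 to 4. Every mutant exceeded every control, with (log2 fold change 4.31, SE 1.12, adjusted p = 0.0305) and without mutant 2 (log2 fold change 2.04, SE 0.24, adjusted p = 0.0001601), and the call with all libraries was lost without any 1 control (adjusted p of at most 0.0937). Loxl2, which also acts on basement membrane collagen, had 28.9, 369, 28.8 and 44.6 CPM in mutants 1 to 4, against 16.5, 14.2, 15.6 and 18.4 CPM in controls 1 to 4. All mutants were above all controls, and it was higher without mutant 2 (log2 fold change 1.08, SE 0.17, adjusted p = 0.000683) while missing the threshold with it (log2 fold change 2.86, SE 0.89, adjusted p = 0.05405). Loxl1, the elastin-directed enzyme, was at 271 CPM in mutant 2, 20.05 to 40.9 CPM in the other 3 mutants and 15.3 to 25.3 CPM in controls, and the groups overlapped (log2 fold change 0.34, SE 0.27, adjusted p = 0.3699 without mutant 2).

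Among the adhesive and matricellular glycoproteins, Thbs1 and Postn rose, and Thbs2 was lower without mutant 2. Thbs1, thrombospondin 1, known to activate latent TGF-beta (chromosome 2, 118111876 to 118127133), had 102, 455, 97.01 and 197 CPM in mutants 1 to 4, against 18.3, 26.02, 48.4 and 50.3 CPM in controls 1 to 4. The lowest mutant held 97.01 CPM and the highest control 50.3 CPM. It rose with (log2 fold change 2.57, SE 0.58, adjusted p = 0.0192) and without mutant 2 (log2 fold change 1.88, SE 0.44, adjusted p = 0.0188), and missed the threshold when control 1 or 2 was removed (highest adjusted p 0.0618). Thbs2, thrombospondin 2, had 6.95, 135, 6.38 and 8.31 CPM in mutants 1 to 4, against 10.9, 8.17, 17.1 and 11.4 CPM in controls 1 to 4. Its log2 fold change was 1.72 (SE 1.04, adjusted p = 0.266) with mutant 2 and -0.72 (SE 0.24, adjusted p = 0.038001) without it, where mutant 4 still overlapped control 2.

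Postn, periostin (chromosome 3, 54361109 to 54391037), had 113, 181, 133 and 125 CPM in mutants 1 to 4, against 80.1, 103, 62.6 and 95.01 CPM in controls 1 to 4. It was the most even of the higher genes, with mutant 2 nearer to the other mutants than in Pdgfra, Fbln5, Lox, Thbs1, Fmod or Adamts4 (log2 fold change 0.70, SE 0.20, adjusted p = 0.0411, and log2 fold change 0.54, SE 0.15, adjusted p = 0.0196 without mutant 2). Leaving out any 1 control, mutant 3 or mutant 4 took the call away (adjusted p of at most 0.106). Fn1, fibronectin, had 201, 3785, 232 and 459 CPM in mutants 1 to 4, against 120.3, 145, 148 and 174 CPM in controls 1 to 4. All mutants lay above all controls, and it was called without mutant 2 (log2 fold change 1.02, SE 0.27, adjusted p = 0.0198) but not with it (log2 fold change 2.995, SE 0.97, adjusted p = 0.0624). Sparc, a collagen-binding matricellular protein, had 304, 5535, 284 and 429 CPM in mutants 1 to 4, against 247, 247, 249 and 234 CPM in controls 1 to 4. Controls differed little from one another, and mutants 1, 3 and 4 lay just above them (log2 fold change 0.47, SE 0.15, adjusted p = 0.0273 without mutant 2, and log2 fold change 2.75, SE 1.02, adjusted p = 0.0906 with it). Tnc, tenascin C, had 38.4, 924, 72.05 and 154 CPM in mutants 1 to 4, against 35.04, 52.8, 44.04 and 48.5 CPM in controls 1 to 4. Mutant 1 fell among the controls, and Tnc was not called with (log2 fold change 2.72, SE 0.94, adjusted p = 0.0738) or without mutant 2 (log2 fold change 0.96, SE 0.45, adjusted p = 0.153).

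Adamts4, a protease that cleaves versican and aggrecan (chromosome 1, 171250421 to 171260637), had 10.1, 60.7, 7.804 and 24.4 CPM in mutants 1 to 4, against 1.19, 2.04, 2.55 and 1.74 CPM in controls 1 to 4. Every mutant was above every control, and it had the smallest p of the 35 genes with all libraries (log2 fold change 3.77, SE 0.70, adjusted p = 0.00943). Without mutant 2 it remained higher (log2 fold change 2.905, SE 0.42, adjusted p = 0.000707). The strand setting of the counting is not given, so reads from the opposite strand may be included in its counts.

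The genes Timp2, Timp3 and Serpinf1 were not called. Timp2, a metalloproteinase inhibitor gene, was at 588 CPM in mutant 2, 100.2 to 129.5 CPM in the other 3 mutants and 116 to 162 CPM in controls, and Timp3, the matrix-bound inhibitor gene, at 151 CPM in mutant 2, 24.6 to 63.9 CPM in the other 3 mutants and 23.7 to 57.9 CPM in controls. Serpinf1, the gene of pigment epithelium-derived factor, an antiangiogenic serpin, was at 185 CPM in mutant 2, 7.03 to 11.4 CPM in the other 3 mutants and 5.62 to 10.4 CPM in controls. Without mutant 2 their log2 fold changes were -0.26 (SE 0.14) for Timp2, -0.03 (SE 0.44) for Timp3 and 0.09 (SE 0.26) for Serpinf1. Vim, vimentin, the mesenchymal intermediate filament, was at 871 CPM in mutant 2, 72.7 to 111 CPM in the other 3 mutants and 98.002 to 131 CPM in controls (log2 fold change -0.41, SE 0.16, adjusted p = 0.0649 without mutant 2). Twist1, a mesenchymal transcription factor gene, had 180 reads in mutant 2, or 7.36 CPM, and at most 25 in any other library, with 0.1002 to 1.07 CPM in the other mutants and 0.691 to 1.32 CPM in controls, and was not called.

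Because library scaling cancels in a ratio of counts within a library, pairs from 1 family were also compared as log2 ratios. The 20 pairs, chosen after the values were seen, were tested by exact two-sided permutation of the 8 libraries, in which the smallest possible p is 0.0286. The ratios reuse the counts given gene by gene above, so their p is not independent of those results. For Ogn/Fmod, Bgn/Ogn and Fbln1/Fbln5 every mutant lay below every control in 1 gene (Ogn or Fbln1). In the other gene (Fmod, Bgn or Fbln5) every mutant lay above, which fixed the outcome of these pairs. In 15 pairs the groups did not overlap (exact permutation p = 0.0286, adjusted p = 0.0381 over the 20 pairs). Many of the pairs share a gene, so these are not 15 separate results. The share of such pairs among all genes was not computed, and as single genes 30.3% of all genes tested did not overlap. Log2 Pdgfra/Pdgfrb was 1.42 ± 0.50 in mutants and 0.27 ± 0.12 in controls (SD, n = 4 each), a difference of 1.15, and 1.397 without mutant 2. The receptor balance thus shifted to Pdgfra in all 4 mutants, least in mutant 2. Log2 Lox/Loxl1 was 0.32 ± 0.64 in mutants and -1.62 ± 0.73 in controls, a difference of 1.95, and Lox/Loxl2 differed by 1.16. Without mutant 2 these differences were 1.77 and 1.02. In the fibulins, log2 Fbln1/Fbln5 was 1.18 ± 0.63 in mutants and 3.02 ± 0.19 in controls, a difference of -1.84, and -1.85 without mutant 2, while Fbln2/Fbln5 overlapped between groups (difference 0.29, p = 1, adjusted p = 1, exact permutation test).

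The widest shift was between the proteoglycans Ogn and Fmod, at 1.18 ± 2.38 in mutants and 5.02 ± 0.21 in controls on the log2 scale, a difference of -3.85, and -2.68 without mutant 2. Ogn reads outnumbered Fmod reads in the other 3 mutants and in all controls, and in mutant 2 Fmod reads outnumbered Ogn reads (log2 ratio -2.34). Dcn/Bgn differed by -1.14, and by -0.91 without mutant 2, with mutant 2 at -1.42, the other mutants at -0.52 to -0.45 and controls at 0.07 to 0.62. Thbs1/Thbs2 overlapped because of mutant 2 (difference 2.01, p = 0.0571, adjusted p = 0.0672, exact permutation test), where the other 3 mutants lay above all controls. Timp2/Timp3 (difference -0.11) and Mfap4/Mfap5 (difference 0.19) overlapped, as did Dcn/Ogn (difference 1.43). A ratio shows an unequal change of its 2 genes and does not say which of them changed.

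**Figure D3:**
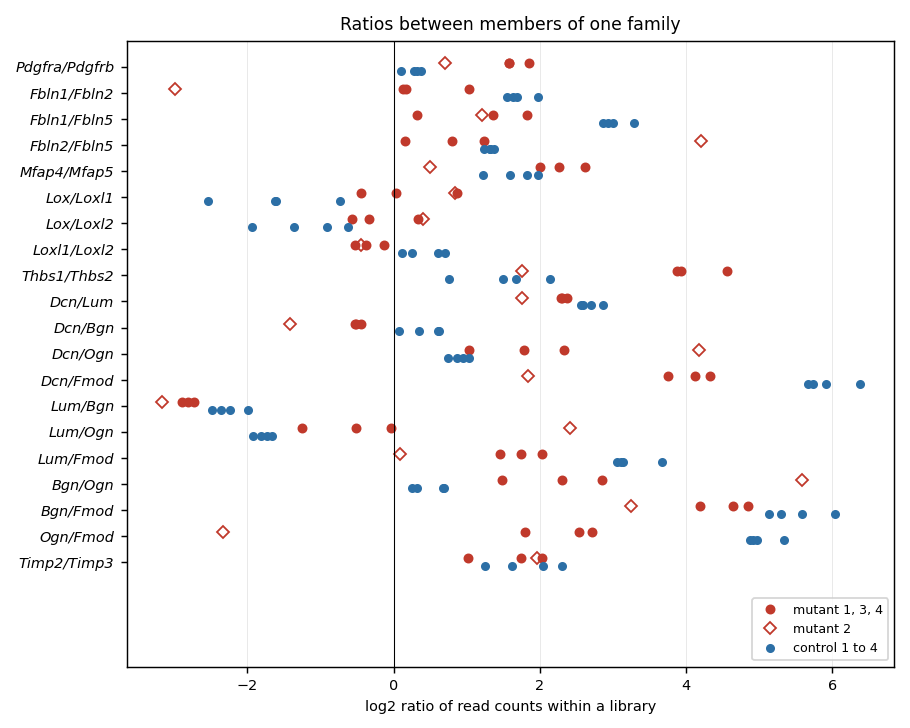
Log2 ratio of read counts within each library for 20 pairs of genes from 1 family, with mutants 1, 3 and 4 as filled red points, mutant 2 as an open diamond and controls in blue. Groups are separate in 15 pairs, and mutant 2 lies beyond the other mutants in most proteoglycan pairs but among or near them in the lysyl oxidase pairs.

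Per unit of gene length, the deposited FPKM give the levels of the genes relative to each other. In controls Sparc was the most abundant at 63.9 ± 1.899 FPKM (SD, n = 4), followed by Dpt at 55.2 ± 6.78, Ogn at 45.9 ± 3.34, Dcn at 37.7 ± 5.09, Timp2 at 34.4 ± 5.18, Fbln1 at 34.1 ± 2.696, Bgn at 27.4 ± 5.73 and Vim at 24.4 ± 2.96 FPKM. Dcn and Timp2, Timp2 and Fbln1, and Bgn and Vim differed by less than the larger of their SDs. At the low end were Adamts4 at 0.388 ± 0.118 and Fap at 0.124 ± 0.0458 FPKM. The summed FPKM of the 35 genes was 3933 in mutant 2, 413 to 595 in the other mutants and 422 to 502 in controls. Of that sum Sparc took 36.9% in mutant 2, 17.7% to 19.4% in the other mutants and 13.1% to 15.2% in controls. Dpt took 1.75% in mutant 2, 3.97% to 4.86% in the other mutants and 10.4% to 14.4% in controls, and Ogn 0.372% in mutant 2, 2.98% to 8.13% in the other mutants and 9.97% to 10.2% in controls. Fn1 took 8.18% in mutant 2, 4.15% to 6.54% in the other mutants and 2.25% to 3.25% in controls. In all 4 mutants Dpt, Ogn and Fbln1 took a smaller share than in any control, and Sparc and Fn1 a larger one.

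**Figure D4:**
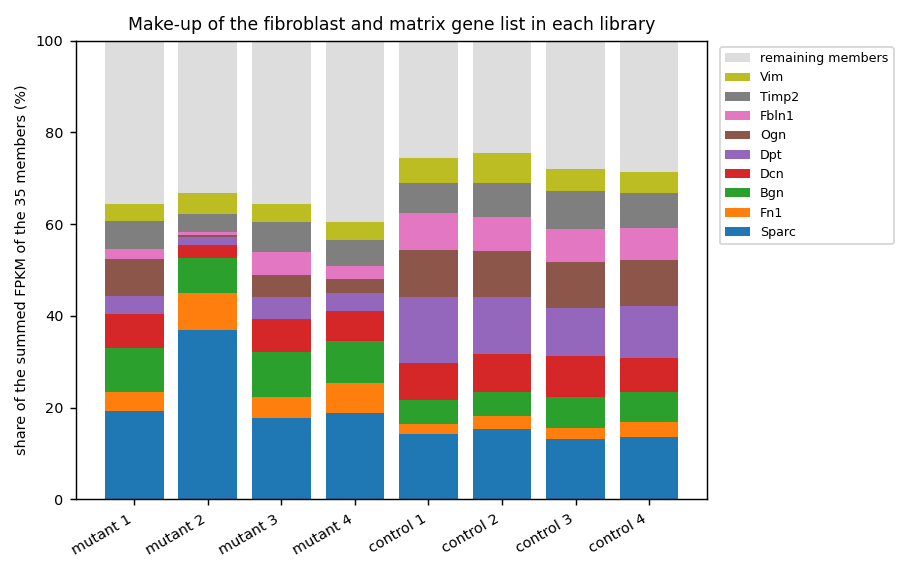
Share of each of 9 genes in the summed FPKM of the 35 genes, in percent, per library, mutants at the left and controls at the right, with the remaining genes in grey. Dpt, Ogn, Fbln1 and Dcn take a smaller part in each mutant than in any control, and Sparc, Fn1 and Bgn a larger one, Sparc most of all in mutant 2.

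Mutant 2 stood above the other mutants by different factors. Its CPM was over 10 times the median of the other 3 mutants in 17 genes, 3 to 10 times in 14, between 1 and 3 times in 3 and below it in 1. The highest factors were 23.8 for Serpinf1, 21.5 for Fbln2, 19.5 for Thbs2 and 18.2 for Sparc. The lowest were 0.734 for Ogn, 1.44 for Postn, 1.59 for Fbln1 and 1.75 for Fbln5. These are values of 1 animal, with no replicate of its own.

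Markers of other cells moved with mutant 2 to differing degrees. The 8 blood endothelium markers summed to 922 CPM in mutant 2, 136 to 142 in the other mutants and 193 to 227 in controls. None of these 8 was called with all libraries, and without mutant 2, 6 were lower and 2 were not called. The 6 pericyte markers summed to 521 CPM in mutant 2, 93.6 to 142 in the other mutants and 217 to 327 in controls. Rgs5 held much of the pericyte sum, at 235 CPM in mutant 2, 47.9 to 70.4 CPM in the other mutants and 152 to 243 CPM in controls. Without mutant 2, 2 pericyte markers, Rgs5 and Cspg4, were lower and 4 were not called. The 6 macrophage markers summed to 788 CPM in mutant 2, 119 to 219 CPM in the other mutants and 118 to 148 CPM in controls. The 12 smooth muscle markers, by contrast, summed to 712 CPM in mutant 2, 328 to 934 CPM in the other mutants and 3136 to 4115 CPM in controls, and all 12 were called lower with and without mutant 2. Parietal markers summed to 246 CPM in mutant 2, 1865 to 3587 CPM in the other mutants and 16892 to 22951 CPM in controls, and chief cell markers to 848 CPM in mutant 2, 11662 to 40208 CPM in the other mutants and 294612 to 528780 CPM in controls. The chief cell sum was mostly Pgc and, in controls, also Chia1. Pga5 of that list was at 0.327 CPM in mutant 2, 90.7 to 299 CPM in the other mutants and 96.8 to 163 CPM in controls. It was not called with or without mutant 2. Among markers of interstitial cells of Cajal, Kit, Ano1 and Etv1 summed to 98.5 CPM in mutant 2, 75.6 to 112 CPM in the other mutants and 103 to 142 CPM in controls, and the fourth, Thbs4, was at 761 CPM in mutant 2 and at most 1.37 CPM elsewhere. Kit, Ano1 and Etv1 were not called with all libraries and went opposite ways without mutant 2. There Kit (log2 fold change -1.75, adjusted p = 0.0016) and Etv1 (-0.68, adjusted p = 0.0361) were lower, and Ano1 was higher (0.50, adjusted p = 0.0190). The mesothelium list summed to 79.8 CPM in mutant 2, 25.2 to 44.8 CPM in the other mutants and 49.3 to 62.2 CPM in controls, with Wt1 at 0 in mutants 1 and 3. Its members went opposite ways: Msln, mesothelin, was higher, at 21.8 to 50.8 CPM in mutants and 8.04 to 13.1 CPM in controls (log2 fold change 1.89, SE 0.28, adjusted p = 0.00421), and Gpm6a was lower, at 1.97 to 4.29 CPM in mutants and 28.99 to 40.98 CPM in controls (log2 fold change -3.47, SE 0.25, adjusted p = 0.000536). The neuron and glia list summed to 14.6 CPM in mutant 2, 6.78 to 11.2 CPM in the other mutants and 31.4 to 39.8 CPM in controls. Adipocyte markers summed to 59.5 CPM in mutant 2, 38.7 to 41.95 CPM in the other mutants and 101 to 191 CPM in controls. Fabp4 held most of that sum, at 58.2 CPM in mutant 2, 24.2 to 29.5 in the other mutants and 77.9 to 114 in controls. Car3 was at 0 to 0.343 CPM in mutants and 2.63 to 37.6 CPM in controls. Adipoq and Lep were at 0 in all 4 mutants and in control 4. Among controls Adipoq was uneven, at 9.42, 2.77, 0.8298 and 0 CPM in controls 1 to 4. The part of these cells in the changes of the 35 genes was not tested. Squamous markers of the forestomach, with Krt5 at 163 CPM in mutant 3, 30.9 CPM in control 3 and at most 0.0429 CPM elsewhere, marked those 2 libraries, and without them 2 of the 35 genes, Adamts4 and Thbs1, were higher and none lower (1410 genes were called in all).

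**Figure D5:**
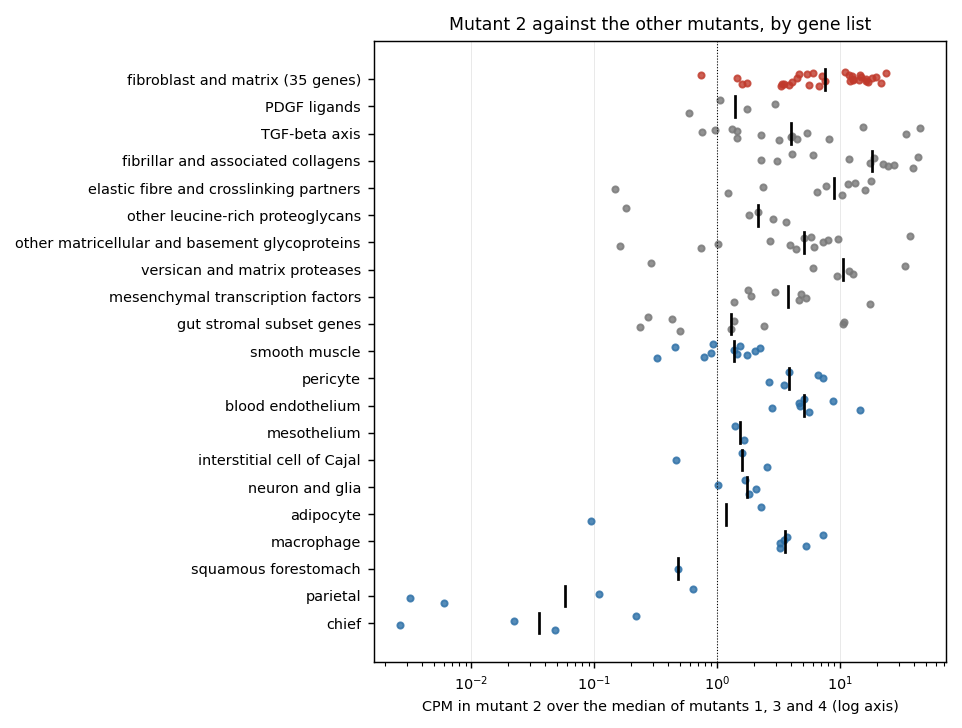
CPM in mutant 2 divided by the median of mutants 1, 3 and 4 (log axis) for each gene of each list with a median of at least 1 CPM in those 3 and reads in mutant 2, with the list median as a black bar: the 33 such fibroblast and matrix genes in red, partner lists in grey, cell type markers in blue. The median is 7.52 in the fibroblast and matrix genes, 18.1 in collagens, 1.37 in smooth muscle and 0.0577 in parietal markers.

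Genes that work with these 35 were read from the same test. They were 90 in number, in 9 lists chosen with earlier results of these data known, and 84 were tested: 6 were higher, 6 lower and 72 not called, with a median log2 fold change of 0.69. The shares were 7.14% higher and 7.14% lower, against 9.39% and 10.8% of all genes tested. Without mutant 2, 85 were tested, 16 were higher and 21 lower, or 18.8% and 24.7%, against 15.2% and 18.3% of all genes, with a median of 0.06. The lists below hold 4 to 15 genes each, and their counts are to be read against the same percentages of all genes. None of the 4 PDGF ligand genes was called by edgeR with or without mutant 2, and none had an unadjusted p under 0.05. The nearest were Pdgfd (log2 fold change -0.32, SE 0.19) and Pdgfc (0.68, SE 0.40), with log2 fold changes of -0.38 (SE 0.19) for Pdgfd and 0.31 (SE 0.31) for Pdgfc without mutant 2.

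In the TGF-beta list 2 of 15 genes rose and 2 fell. Smad7, the inhibitory SMAD that TGF-beta and BMP signals induce, had 31.3, 31.4, 35.8 and 32.6 CPM in mutants 1 to 4, against 58.3, 59.1, 55.2 and 62.3 CPM in controls 1 to 4, with every mutant below every control (log2 fold change -0.84, SE 0.09, adjusted p = 0.00137, and log2 fold change -0.82, SE 0.10, adjusted p = 0.000159 without mutant 2). With column totals its sign stayed negative (log2 fold change -0.15, adjusted p = 0.308). Ltbp2, a latent TGF-beta binding protein of microfibrils, had 18.2, 630.0, 12.8 and 20.7 CPM in mutants 1 to 4, against 2.57, 1.25, 1.21 and 1.02 CPM in controls 1 to 4. It rose with (log2 fold change 6.81, SE 1.61, adjusted p = 0.0221) and without mutant 2 (log2 fold change 3.502, SE 0.31, adjusted p = 2.34e-05). The other 2 called genes, outside the rule of smallest p, were Inhba, the activin A subunit gene, and Ltbp4, a latent TGF-beta binding protein gene. Inhba had 1.64, 28.5, 1.85 and 5.57 CPM in mutants 1 to 4, against 0.565, 0.593, 0.702 and 1.26 CPM in controls 1 to 4 (log2 fold change 3.57, SE 1.004, adjusted p = 0.0396, and log2 fold change 1.94, SE 0.50, adjusted p = 0.0116 without mutant 2). Ltbp4 had 226, 221, 299 and 292 CPM in mutants 1 to 4, against 380.5, 318, 463 and 393 CPM in controls 1 to 4 (log2 fold change -0.58, SE 0.17, adjusted p = 0.0434, and log2 fold change -0.51, SE 0.15, adjusted p = 0.02503 without mutant 2), and its log2 fold change was 0.12 with column totals, the opposite sign. Without mutant 2, 4 genes of this list were higher and 6 lower.

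Of 12 collagen genes 1 was higher, Col12a1, a fibril-associated collagen. It had 32.5, 1685, 38.8 and 81.2 CPM in mutants 1 to 4, against 16.7, 15.7, 11.4 and 16.5 CPM in controls 1 to 4. The log2 fold change was 4.93 (SE 1.41, adjusted p = 0.0422) with mutant 2 and 1.75 (SE 0.32, adjusted p = 0.00394) without it. Col5a2, a collagen V chain, was next (log2 fold change 2.800, SE 1.00, adjusted p = 0.0808) and passed without mutant 2 (log2 fold change 0.63, SE 0.18, adjusted p = 0.0239). In the list of elastic fibre partners none of 10 was called, Loxl4 (log2 fold change 0.87, SE 0.31) and Fbn2 (3.06, SE 1.09) having the smallest p, with 2 genes at an unadjusted p under 0.05. Without mutant 2 the values were 0.79 (SE 0.30) for Loxl4 and 1.07 (SE 0.50) for Fbn2, neither called. In that fit 1 gene of the list was lower, Emilin2 (log2 fold change -1.88, SE 0.23, adjusted p = 0.000132). It had 4.54, 72.2, 3.75 and 7.59 CPM in mutants 1 to 4, against 17.5 to 21.1 CPM in controls. Of 8 further leucine-rich proteoglycans 5 were tested and 1 fell, Ecm2. It had 2.104, 4.498, 1.51 and 2.27 CPM in mutants 1 to 4, against 6.15, 5.995, 7.53 and 7.84 CPM in controls 1 to 4 (log2 fold change -1.404, SE 0.35, adjusted p = 0.0263, and log2 fold change -1.81, SE 0.24, adjusted p = 0.000254 without mutant 2). Chad, chondroadherin, was not called with mutant 2, which held 21.02 CPM (log2 fold change 1.51, SE 0.50, adjusted p = 0.0659), and was higher without it (log2 fold change 1.84, SE 0.23, adjusted p = 0.000402). In all, 1 gene of this list was higher and 3 were lower without mutant 2.

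Of 15 further matricellular and basement glycoprotein genes 13 were tested and 1 fell. It was Tnxb, tenascin X, with 18.1, 28.7, 28.2 and 33.9 CPM in mutants 1 to 4, against 81.4, 79.5, 106 and 89.4 CPM in controls 1 to 4 (log2 fold change -1.71, SE 0.20, adjusted p = 0.00171, and log2 fold change -1.74, SE 0.20, adjusted p = 0.000179 without mutant 2). Smoc2, a SPARC-related gene, was at 33.1 to 183 CPM in mutants and 22.3 to 25.9 CPM in controls and was called without mutant 2 (log2 fold change 0.85, SE 0.14, adjusted p = 0.00113) but not with it (log2 fold change 1.71, SE 0.52, adjusted p = 0.0514). In all, 2 genes of this list were higher and 3 lower without mutant 2. Among 6 further ADAMTS proteases 1 was higher, Adamts9. It had 5.68, 51.2, 8.41 and 16.5 CPM in mutants 1 to 4, against 2.45, 3.89, 6.26 and 3.83 CPM in controls 1 to 4, so that mutant 1 lay below control 3 (log2 fold change 2.31, SE 0.70, adjusted p = 0.0499, and log2 fold change 1.31, SE 0.39, adjusted p = 0.0284 without mutant 2). Adamts5, a relative of Adamts4, was called without mutant 2 (log2 fold change 1.22, SE 0.30, adjusted p = 0.00882) but not with it (log2 fold change 3.15, SE 0.98, adjusted p = 0.0545).

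Of 10 mesenchymal transcription factor genes 9 were tested and none was called by edgeR with mutant 2, with 3 at an unadjusted p under 0.05 (Snai1, log2 fold change 3.13, SE 0.99, and Snai2, 0.94, SE 0.31, had the smallest p). Without it 10 were tested and 1 was higher, Snai1 (log2 fold change 1.15, SE 0.32, adjusted p = 0.0161). In that fit 6 were lower, and the list's median log2 fold change was -0.56. The shares were 10% higher and 60% lower, against 15.2% and 18.3% of all genes tested. Snai2 was at 0.81 (SE 0.30) and not called, so Snai1 and Snai2 went against most of the list. Of 10 genes of gut stromal subsets 2 rose and 2 fell. Clec3b, tetranectin, a gene of adventitial fibroblasts, had 12.4, 6.91, 15.95 and 16.1 CPM in mutants 1 to 4, against 52.6, 35.4, 47.6 and 36.9 CPM in controls 1 to 4 (log2 fold change -1.75, SE 0.28, adjusted p = 0.00505, and log2 fold change -1.54, SE 0.17, adjusted p = 7.84e-05 without mutant 2). Wnt5a, a Wnt ligand of subepithelial Pdgfra-positive cells, had 34.1, 87.3, 36.3 and 42.5 CPM in mutants 1 to 4, against 14.3, 14.5, 15.0003 and 14.96 CPM in controls 1 to 4 (log2 fold change 1.77, SE 0.30, adjusted p = 0.00666, and log2 fold change 1.36, SE 0.11, adjusted p = 1.73e-05 without mutant 2). Also called were Grem1, given among the other observations, and Gsn, gelsolin, with 414, 134, 484 and 486 CPM in mutants 1 to 4, against 1306, 1179, 1079 and 1016 CPM in controls 1 to 4 (log2 fold change -1.59, SE 0.38, adjusted p = 0.02201, and log2 fold change -1.31, SE 0.15, adjusted p = 8.24e-05 without mutant 2).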

How the data were processed

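Per the labels' protocols, corpus tissue went into RNAlater, RNA was purified with Trizol and a NEBNext Ultra kit gave polyA libraries. One table deposited by the authors holds a raw count for each Ensembl gene and library, and another the authors' FPKM. Per the submitters' processing notes, the tools were CASAVA, fastp, STAR 2.5 and featureCounts. Neither the build nor the strand setting is given there. GENCODE M21 (GRCm38) lists 54409 of the table's genes, 53499 of them, and 33 of the 35, at identical positions. Columns were matched by name, the column SCI being read as control 1. Libraries of a group all differed by more than counting noise, with a chi-square of at least 14.8 per degree of freedom. The series' design text calls the libraries biological replicates.

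Counts were filtered with filterByExpr, scaled with TMM and compared, mutant over control, by the robust quasi-likelihood test of edgeR 4.0.16 in R 4.3.3. P-values were adjusted after Benjamini and Hochberg over all genes tested, with a threshold of 0.05. Every adjusted p is from this test unless another is named. The SE is the fitted log2 fold change without prior count over the square root of F. A floor of 3 counts was 0.100 to 0.129 CPM in mutants and 0.179 to 0.198 CPM in controls, and covers counting error only. Depth limits mainly Fap and Twist1. Alternatives were DESeq2 1.42.0, limma 3.58.1 (voom with sample weights, and its trend method on FPKM logged with a pseudocount of 1 or 0.1, a scale that understates low genes), other scalings and filters, the replicate number as a block, and each library left out. Column totals without mutant 2, and the within-family ratios (scipy 1.17.1), were added after seeing the data. The 35 genes and all lists were chosen with earlier results of these data known. Values per library are given for the called among the 35. In each partner list the 2 genes of smallest p and any further gene called with all libraries are named. Partner genes called only without mutant 2 are counted but not all named.

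Each gene-wise test was first tested on simulated data. Deviations from the group mean correlated between libraries of the same number at 0.0457, -0.0618, 0.0688 and 0.000648, so the numbers were not taken as pairs. A result on 1 further gene is not reported here.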

Additional observations from a re-analysis of the deposited data

Results flagged for a closer look

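In groups of 4, a library was marked where its gap to the nearest other was too large a part of the group's whole range in log2 CPM, by Dixon's 95% criterion. Of 70 groups, 35 genes in mutants and in controls, 12 were marked, where chance marks about 1 in 20. In 9 of them mutant 2 stood above the other mutants: Lum at 202, Lox at 486, Sparc at 5535, Thbs2 at 135, Bgn at 1814, Vcan at 187, Fmod at 191, Timp2 at 588 and Serpinf1 at 185 CPM. Among controls, Dpt stood high in control 1 at 113 CPM and Cd34 in control 3 at 41.04 CPM, and Sparc stood low in control 4 at 234 CPM. For these 3 the mutant values and the direction without mutant 2 are given with each gene above.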

How the results depend on the processing

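With all libraries 7 of the 35 genes were higher, 1 was lower and 3208 genes were called in all; of the partner genes 6 were higher and 6 lower. Column totals gave 25 and 0 of the 35, 54 and 2 partner genes and 10165 genes in all, and column totals without mutant 2 gave 24 of the 35 higher, 52 partner genes higher and 11480 in all. Limma-voom with sample weights gave 12 and 4 of the 35, 15 and 15 partner genes and 5691 in all, and made Cd34 lower (log2 fold change -0.87). DESeq2 gave 2 of the 35 lower and 14 partner genes higher, but no adjusted p for 21 of the 35, Lox and Fmod among them. No filter on low counts left 2 partner genes higher. Limma-trend on log2(FPKM + 1) left 4 of the 35 and 3 partner genes higher, and without a filter 1 and 1. With the replicate number as a block, 2 of the 35 (Adamts4 and Pdgfra) were higher, 1 was lower, 2 partner genes were higher and 3 lower, and 1824 genes were called. Without both libraries with squamous transcripts, 2 of the 35 were higher and 0 lower, 1 partner gene was higher and 3 lower, and 1410 genes were called. Leaving out each library in turn gave 1 to 12 of the 35 higher and 0 to 5 lower, 1 to 16 partner genes higher and 3 to 21 lower, and 1717 to 5400 genes in all, the highest counts in each case without mutant 2. The log2 fold change changed sign without mutant 2 in 11 of the 35 genes, of which 2, Cd34 and Thbs2, were then called (the others were Pdgfrb, Dcn, Mfap5, Fap, Eln, Timp2, Timp3, Twist1 and Vim). Over the 8 removals the log2 fold change of Cd34 ran from -0.96 to 0.58 and that of Thbs2 from -0.72 to 2.07. The cause of these changes was not tested. RLE size factors and the stricter count filter gave the same 8 calls. With 1 library left out the exact test of the ratios cannot go below 0.0571.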

Other observations

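Outside the 35 genes, Thbs4, thrombospondin 4, picked after its values were seen, was at 761 CPM in mutant 2, 0.0334 to 1.37 CPM in the other mutants and 0.319 to 1.19 CPM in controls, and the filter on low counts removed it from the test. In the same library Col1a1, a collagen I chain chosen the same way, was at 10853 CPM, against 277 to 444 CPM in the other mutants and 224 to 279 CPM in controls. Sparcl1, a relative of Sparc, also picked after seeing its values, went the other way in mutants 1, 3 and 4, at 33.6 to 48.1 CPM against 196 to 259 CPM in controls, with 265 CPM in mutant 2 (log2 fold change -2.41, SE 0.16, adjusted p = 4.76e-06 without mutant 2). Grem1, likewise picked after its values were seen, a secreted BMP antagonist of gut fibroblasts, was at 59.8 to 845 CPM in mutants and 13.8 to 21.1 CPM in controls, the lowest mutant above the highest control (log2 fold change 4.04, SE 0.89, adjusted p = 0.0173, and log2 fold change 2.505, SE 0.33, adjusted p = 0.00115 without mutant 2).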
